A study of Rattus norvegicus with 12 samples.

Results

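A set of 98 array probes reversed its response to medium rich in alpha-synuclein: their signal was higher than in control medium after 6 h and lower than in control medium after 24 h. The 98 were selected on measured values from the 22523 probes of the array, by a mean log2 signal at least 0.5 higher in alpha-synuclein medium at 6 h and at least 0.5 lower at 24 h. The differences between media at these times therefore chose the probes and are given below as a description, with no test. The cells were primary rat microglia, the macrophages of the brain, in culture. They received concentrated serum-free medium that had been conditioned by SH-SY5Y, a line of human neuroblastoma origin, after differentiation. The SH-SY5Y cells carried an adenovirus for alpha-synuclein (aSCM) or, as the control, for LacZ, the gene of beta-galactosidase (LZCM). The labels list tagged and untagged alpha-synuclein vectors and do not say which gave the aSCM used here. There were 4 groups of 3 arrays: aSCM for 6 h, LZCM for 6 h, aSCM for 24 h and LZCM for 24 h. The microglia themselves carried no transgene, and every group received medium from virus-infected human cells. No label states that replicates had their own culture, animal or batch of medium, so p-values reflect only how these arrays vary, and that variation may be technical.

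Microglia sense extracellular alpha-synuclein, the protein that aggregates in Parkinson's disease, in part through Toll-like receptors such as TLR2. Such receptors act through NF-kB and mitogen-activated protein kinases, which switch on immediate-early transcription factors first and cytokine, chemokine and adhesion genes after them. Many induced genes also encode brakes on the response, such as phosphatases and regulators of G-protein signalling, and the series title names TLR2 as the receptor under study.

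All values are normalized log2 signals, on which a difference of 1 is a 2-fold change. Signals were quantile normalized over the 12 arrays with no background subtraction, the scale on which the rule was defined, and background left in the signal understates the fold changes of dim probes. Between 10871 and 11443 probes were above background on each array, and 12351 probes above background on at least 3 arrays were tested. All 98 reversal probes were among these, and 94 were above background on 12 of 12 arrays. Arrays of 1 group correlated at 0.996 to 0.998 over the tested probes and arrays of different groups at 0.919 to 0.984. Of the 98 probes, 77 carried 1 gene symbol, for 76 genes, and 21 had none in the annotation used.

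The early rise and the late fall were of similar size over the set. The rise at 6 h ran from 0.50 to 5.40 on the log2 scale with a median of 0.78, or 1.71-fold, and the difference at 24 h from -2.67 to -0.50 with a median of -0.78, or 1.72-fold lower in aSCM. Over all tested probes the medians were -0.02 at 6 h and 0.03 at 24 h. The rise exceeded the fall in 50 probes and the fall exceeded the rise in 48. Both changes reached 2-fold for 9 probes, while 34 reached it at 6 h and 24 at 24 h. All 3 aSCM arrays lay above all 3 LZCM arrays at 6 h for 97 of the 98, the exception being Esm1, and below them at 24 h for 98 of 98. Among all tested probes 4.76% showed that pattern at both times, and since the rule used these contrasts nothing is read from the count.

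**Figure D1:**
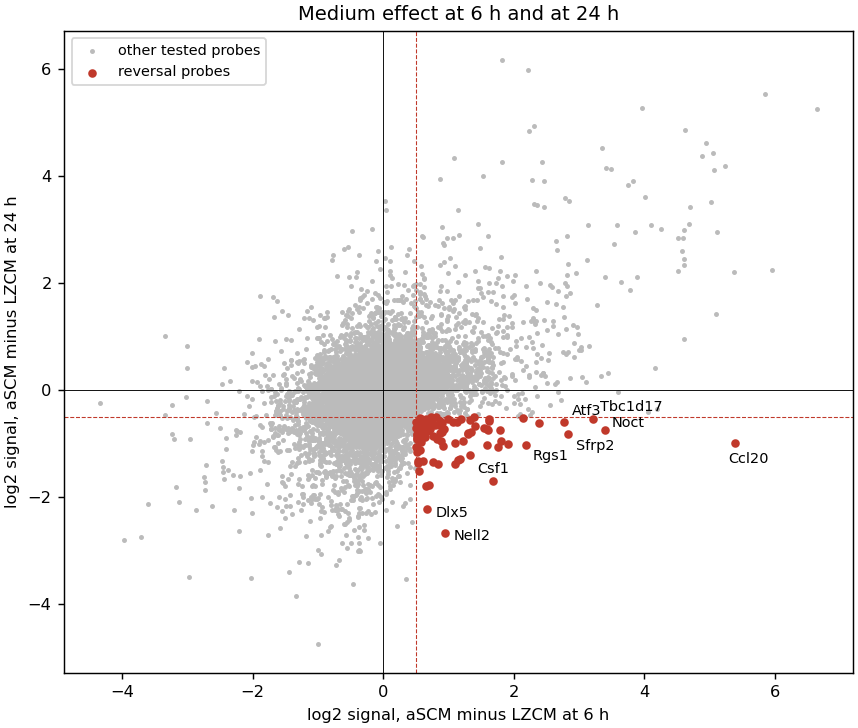
Difference in log2 signal between aSCM and LZCM at 6 h (horizontal axis) and at 24 h (vertical axis) for each tested probe, in grey, with the 98 reversal probes in red and the rule's thresholds of 0.5 and -0.5 as dashed lines. The reversal probes fill the lower right corner, with Ccl20 farthest right at a rise of 5.40 and Nell2 lowest at a difference of -2.67.

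Probes just inside and just outside the rule were close in value. The smallest rises inside it were 0.50 for ILMN_1375780, 0.51 for ILMN_1372294 and 0.51 for Lingo1, while Chst10, Mgll and Snap91 stayed outside with rises of 0.50, 0.49 and 0.49 and 24 h differences of -1.04, -1.08 and -0.95. The smallest falls inside it were those of Fzd1, Pak3 and Errfi1, with differences at 24 h of -0.50, -0.50 and -0.51. ILMN_1355431, Rnmt and Chka stayed outside with -0.50, -0.50 and -0.49. When each array was left out in turn, 70 of the 98 met the rule every time and 28 missed it at least once. For Esm1, which encodes a secreted proteoglycan of endothelial cells, 1 array decided membership: its aSCM signals at 6 h were 6.84, 8.33 and 7.42, against 7.02, 6.79 and 6.65 in LZCM, and without aSCM replicate 2 the rise was 0.31. Cyp1b1, a cytochrome P450 gene, had 7.94, 8.52 and 7.77 in aSCM, against 7.47, 7.64 and 7.56 in LZCM at 6 h, and a rise of 0.30 without the same array.

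Signal of marker genes of other brain cell types moved with the groups. Astrocyte markers (7 genes with a probe) summed to 3479 to 3537 in aSCM at 24 h, against 14756 to 16189 in LZCM, and to 4661 to 4882 in aSCM at 6 h, against 7927 to 8166 in LZCM, in linear signal units that include background. Markers of the oligodendrocyte lineage (9 genes) summed to 5676 to 6502 in aSCM, against 31648 to 33050 in LZCM at 24 h, and to 4669 to 5090 in aSCM, against 9231 to 10006 in LZCM at 6 h. Neuronal markers (9 genes) summed to 8598 to 9516 in aSCM, against 17052 to 18391 in LZCM at 24 h, and overlapped at 6 h, with 8062 to 8678 in aSCM, against 7913 to 8516 in LZCM. At 24 h these sums were thus lower in aSCM, as the reversal probes were, whereas at 6 h the glial sums were also lower in aSCM while the reversal probes were higher. The arrays do not show which cells gave the marker signal. In RNA from whole cultures, fewer cells of a type and less RNA per cell cannot be told apart, and the part of other cell types in the reversal was not tested.

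Individual markers did not all follow the sums of their lists, which are carried by the brightest genes. In LZCM at 24 h these were mainly Olig1, at 14.69, for the oligodendrocyte list and Gap43, at 13.66, for the neuronal list. Of 5 tested astrocyte markers, aSCM arrays at 6 h had 1 called higher and 3 called lower, and at 24 h 4 called lower (limma, Benjamini-Hochberg). Of 9 oligodendrocyte markers 5 were called lower at 6 h and 8 at 24 h. Of 9 neuronal markers 2 were called higher and 2 lower at 6 h, while 24 h had 2 called higher and 6 called lower. Olig1, a transcription factor of oligodendrocyte precursors, averaged 11.96 in aSCM and 14.69 in LZCM at 24 h, and 11.37 in aSCM and 12.56 in LZCM at 6 h. Gfap, the astrocyte intermediate filament, averaged 9.01 in aSCM and 12.03 in LZCM at 24 h. Gja1, an astrocyte gap junction gene, reversed as the 98 probes did but missed the rule, with log2 differences of 0.21 at 6 h (limma adjusted p = 0.0221) and -1.52 at 24 h. Its 6 h call ended with no normalization between arrays and without aSCM 6 h replicate 2 or LZCM 6 h replicate 2. The neurofilament genes Nefl and Nefm were higher in aSCM at both times, with 0.96 and 0.72 at 6 h and 0.70 and 0.43 at 24 h. The brightest neuronal marker was Gap43, a growth cone protein, with 12.79 in aSCM and 13.66 in LZCM at 24 h, and Rbfox3 had a difference of 0.03. Among the astrocyte markers Aqp4 and Gjb6 were above background on 0 of 12 arrays. Of the 5 fibroblast and meningeal markers with a probe, Col1a1, Col3a1 and Lum were above background on none, and the 5 summed to 682 to 730 in aSCM, against 2306 to 2449 in LZCM at 24 h, and to 919 to 1076 in aSCM, against 1151 to 1289 in LZCM at 6 h. Col1a2 was the 1 bright gene among these 5, with 8.07 in aSCM and 10.93 in LZCM at 24 h, whereas Dcn was called higher in aSCM at 24 h, by 0.52 (limma adjusted p = 0.0004). Endothelial, lymphocyte and neutrophil lists, of 5, 5 and 6 genes, had at most 2 genes above background on all 3 arrays of any group. Among the microglial markers Aif1 was bright in every group, with means from 14.98 to 15.28, and C1qa, C1qb, C1qc and Tyrobp were bright as well. Cx3cr1 averaged 6.86 in aSCM and 8.87 in LZCM at 6 h and was above background on 9 of 12 arrays. P2ry12 averaged 7.41 in aSCM and 10.28 in LZCM at 6 h. Of the 10 microglial markers, 2 were called higher and 6 lower in aSCM at 6 h, and 3 higher and 5 lower at 24 h. Those called higher at 24 h were Itgam, Spi1 and Ptprc, by 1.69, 1.56 and 0.57, while C1qa, C1qb and C1qc were among those called lower. The 10 microglial markers together summed to 85440 to 90378 in aSCM, against 125667 to 133129 in LZCM at 24 h, and to 124035 to 125409 in aSCM, against 141317 to 151908 in LZCM at 6 h. The neutrophil list, with 0 to 2 genes above background in a group, summed to 1204 to 1269 in aSCM, against 618 to 637 in LZCM at 24 h, where S100a8 had 9.32 in aSCM and 6.81 in LZCM. Elane, S100a9 and Ngp of that list were above background on 0 of 12 arrays.

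**Figure D2:**
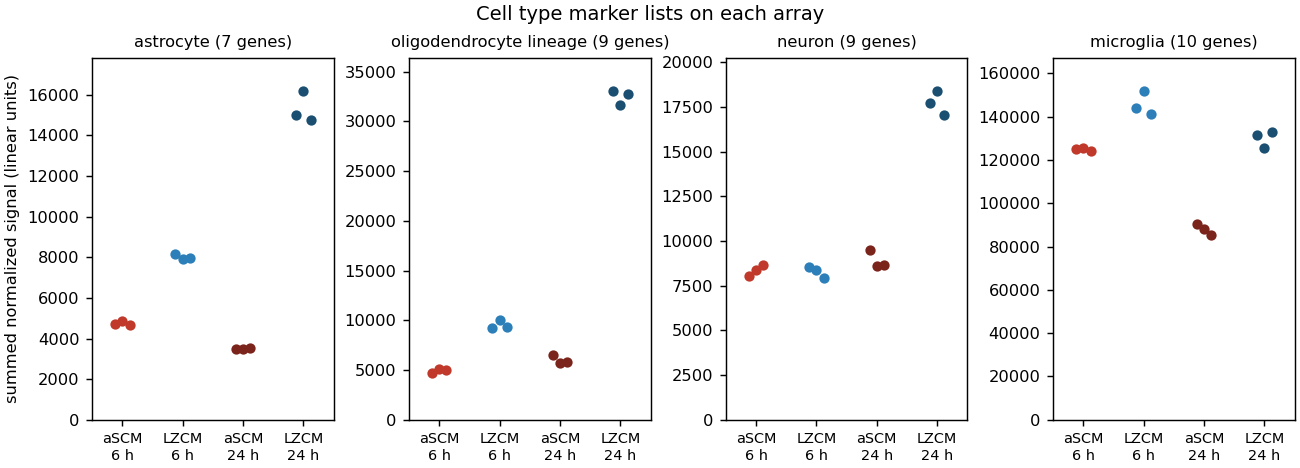
Summed linear normalized signal of the astrocyte, oligodendrocyte lineage, neuron and microglia marker lists on each of the 12 arrays, with 1 point per array and the groups in the order aSCM and LZCM at 6 h, then aSCM and LZCM at 24 h. The LZCM arrays at 24 h stand highest for the 3 non-microglial lists, at 14756 to 16189, 31648 to 33050 and 17052 to 18391.

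Among secreted immune signals, the reversal took in the chemokine Ccl20 and the growth factor Csf1. Ccl20, which attracts cells bearing the receptor CCR6, had signals of 12.46, 12.47 and 12.37 in aSCM at 6 h, against 6.99, 6.86 and 7.27 in LZCM. At 24 h it had 7.77, 7.49 and 7.55 in aSCM, against 8.61, 8.64 and 8.53 in LZCM. It had the largest rise of the set, and the groups did not overlap at either time. The normalized signals differed 42.2-fold at 6 h, but the probe was above background on only 2 of the 3 LZCM arrays at that time, so this ratio is partly against background. Csf1, the survival factor of microglia, had 10.35, 10.37 and 10.42 in aSCM at 6 h, against 8.95, 8.97 and 9.20 in LZCM. At 24 h Csf1 had 7.77, 7.80 and 7.77 in aSCM, against 8.94 to 9.05 in LZCM. Its rise of 2.53-fold and fall of 2.33-fold made it the gene with a symbol whose smaller change was the largest in the set.

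Most other cytokines and chemokines behaved differently from these. Of 17 tested chemokine genes, each represented by its brightest probe, 13 were called higher and 1 lower in aSCM at 6 h and 11 higher and 2 lower at 24 h, by limma with a Benjamini-Hochberg adjusted p under 0.05. Ccl20 was the 1 of these 17 called higher at 6 h and lower at 24 h. Cxcl12, a chemokine outside this list, was also a member, with log2 differences of 0.54 at 6 h and -0.75 at 24 h. Over all tested probes 58.1% were called at 6 h, 25.9% as higher and 32.2% as lower, and 60% at 24 h, 30.8% as higher and 29.2% as lower. The share called higher first and lower later was 4.2%. Cxcl2, a neutrophil chemoattractant, had log2 differences of 6.65 at 6 h (limma adjusted p = 9.37e-18) and 5.26 at 24 h (limma adjusted p = 2.65e-16). Ccl7 had 3.41 and 4.14 at the same times. Of 19 tested cytokine genes, 17 were called higher at 6 h, 12 were called higher at 24 h, and Csf1 was the 1 called lower at 24 h. Il6 had 5.96 at 6 h and 2.25 at 24 h, Tnf had 3.88 and 2.11, and Il1b had 2.43 and 4.26. The chemokine count of reversals was 2 with array weights and 2 without aSCM 6 h replicate 3.

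Cell surface adhesion genes of the set included Vcam1, Alcam, Pcdh8, Lyve1 and Epha4. Vcam1, a ligand for leukocyte integrins, had 9.15, 9.03 and 9.64 in aSCM at 6 h, against 7.35, 7.41 and 7.31 in LZCM. At 24 h Vcam1 had 7.05, 7.21 and 7.29 in aSCM, against 8.13, 8.25 and 8.19 in LZCM, so that all 3 aSCM arrays at 24 h lay below the LZCM arrays of 6 h. Alcam, a homophilic adhesion molecule, was brighter, with means of 13.10 in aSCM and 11.88 in LZCM at 6 h and of 10.73 in aSCM and 11.67 in LZCM at 24 h. Lyve1, a hyaluronan receptor of lymphatic endothelium and some macrophages, had differences of 0.89 at 6 h and -0.95 at 24 h with a wider spread: at 24 h its values were 8.53, 8.78 and 8.90 in aSCM, against 9.49, 9.53 and 10.04 in LZCM. Pcdh8, a protocadherin, had 0.87 and -0.79, and Epha4, an ephrin receptor, 0.92 and -1.04.

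The promoters of 61 of the 76 genes were held in the RefSeq promoter table (build GRCr8), and 5 are printed, those of genes with a value given for every array whose upstream 250 bases held an NF-kB, AP-1 or CArG motif. They run 5′ to 3′ on the gene's strand and end at the base before the annotated start, with every motif match in capitals. The Ccl20 promoter is chr9:91836909-91837158, plus strand, and its NF-kB motif begins 89 bases before the start. That of Vcam1 is chr2:206742784-206743033, minus strand, with an NF-kB motif 93 bases before the start and a TATA box, matched on both strands, 62 to 60 bases before it. That of Egr2 is chr20:21054442-21054691, minus strand, with a CArG box, the binding motif of serum response factor, 83 bases before the start and an antioxidant response element 70 bases before it. That of Olr1 is chr4:164634548-164634797, minus strand, with an AP-1 motif 30 bases before the start. That of Basp1 is chr2:77594298-77594547, minus strand, with an NF-kB motif 178 bases before the start.
Ccl20: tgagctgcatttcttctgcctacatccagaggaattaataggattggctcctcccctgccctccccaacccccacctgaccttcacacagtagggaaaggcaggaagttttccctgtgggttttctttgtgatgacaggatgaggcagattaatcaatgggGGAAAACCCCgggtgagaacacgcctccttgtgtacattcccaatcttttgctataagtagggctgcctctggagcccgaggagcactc
Vcam1: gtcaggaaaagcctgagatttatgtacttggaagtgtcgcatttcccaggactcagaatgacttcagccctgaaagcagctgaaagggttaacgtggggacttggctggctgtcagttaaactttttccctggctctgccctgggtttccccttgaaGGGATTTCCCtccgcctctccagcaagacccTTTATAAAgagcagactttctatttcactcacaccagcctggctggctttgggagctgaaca
Egr2: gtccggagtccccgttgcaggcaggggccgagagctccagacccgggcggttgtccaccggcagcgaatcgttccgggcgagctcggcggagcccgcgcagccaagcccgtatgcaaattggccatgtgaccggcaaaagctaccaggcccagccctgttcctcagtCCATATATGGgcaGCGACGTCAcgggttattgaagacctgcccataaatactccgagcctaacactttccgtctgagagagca
Olr1: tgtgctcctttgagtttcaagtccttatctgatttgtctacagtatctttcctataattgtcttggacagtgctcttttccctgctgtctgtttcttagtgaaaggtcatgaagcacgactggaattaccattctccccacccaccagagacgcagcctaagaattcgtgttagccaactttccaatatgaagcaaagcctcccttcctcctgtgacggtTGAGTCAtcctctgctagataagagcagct
Basp1: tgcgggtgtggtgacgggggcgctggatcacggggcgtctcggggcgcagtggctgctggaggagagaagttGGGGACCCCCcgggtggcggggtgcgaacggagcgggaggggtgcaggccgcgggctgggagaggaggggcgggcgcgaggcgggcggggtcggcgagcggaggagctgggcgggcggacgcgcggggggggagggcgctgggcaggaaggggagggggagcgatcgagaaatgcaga

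Motifs were searched on both strands of the same 250 bases for the 61 member promoters and, as background, for the 33469 promoters of the table. The member promoters were 1 per gene, while the background was neither reduced to 1 per gene nor limited to genes on the array. The shares were not tested against each other. The NF-kB motif was found in 6 of 61, or 9.84%, against 3.54% of all promoters. The AP-1 motif TGANTCA was found in 6.56% of member promoters and 6.34% of all promoters. The cyclic AMP element TGACGTCA was found in 3.28% of member promoters and 1.59% of all promoters, and the antioxidant response element TGACNNNGC in 18.0% and 10.1%. The TATA box TATAAA was found in 8.2% of member promoters and 12.9% of all promoters, and the CArG box in 1.64% and 1.5%. In Idi1 the AP-1 match lay within the match of the antioxidant element. A match is a description of these letters, and no match says only that the letters are not in this window.

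The immediate-early transcription factors Atf3 and Egr2 were members. Atf3, a stress-induced factor that restrains Toll-like receptor responses in mice, averaged 11.95 ± 0.05 in aSCM and 9.17 ± 0.05 in LZCM at 6 h (SD, n = 3 each). At 24 h Atf3 averaged 8.54 ± 0.05 in aSCM and 9.14 ± 0.06 in LZCM (SD, n = 3 each), with no overlap at either time, a fall of 1.52-fold after a rise of 6.87-fold. Egr2, a zinc finger factor of the early growth response family, had 11.41, 11.35 and 11.36 in aSCM at 6 h, against 9.72, 9.83 and 9.70 in LZCM. At 24 h Egr2 had 9.86, 9.80 and 9.69 in aSCM, against 10.38, 10.29 and 10.33 in LZCM, so its LZCM level was higher at 24 h than at 6 h. Without aSCM 24 h replicate 3 its late difference was -0.50, just outside the rule. Btg1, which restrains proliferation, was among the brightest members, with means of 15.10 in aSCM and 13.79 in LZCM at 6 h and of 13.14 in aSCM and 13.94 in LZCM at 24 h.

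Of 20 tested immediate-early genes, 16 were called higher and 1 lower in aSCM at 6 h, and 8 were called higher and 7 lower at 24 h (4 higher and 7 lower with no normalization between arrays). The shares of all tested probes called higher and lower were 25.9% and 32.2% at 6 h and 30.8% and 29.2% at 24 h. The median log2 difference of the list was 1.46 at 6 h and 0.04 at 24 h. Higher at 6 h and lower at 24 h were 6 of the 20, against 4.2% of all tested probes: Atf3, Egr2, Egr1, Myc, Nr4a2 and Bhlhe40. Atf3 and Egr2 were chosen by the rule on these contrasts, and the list was chosen with earlier results of these data known. The count was therefore not tested against that share. Myc, a growth regulator, had log2 differences of 1.89 at 6 h (limma adjusted p = 8.03e-14) and -0.33 at 24 h (limma adjusted p = 0.000588). Bhlhe40, a transcriptional repressor, had 0.30 (limma adjusted p = 0.000575) and -2.17 (limma adjusted p = 4.91e-15), and Egr1 had 0.34 and -1.20. Others stayed higher at both times, such as Ier3 with 2.41 and 2.01 and Zfp36, which destabilizes cytokine mRNAs, with 1.90 and 1.02. The count of 6 was 3 with no normalization between arrays.

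**Figure D3:**
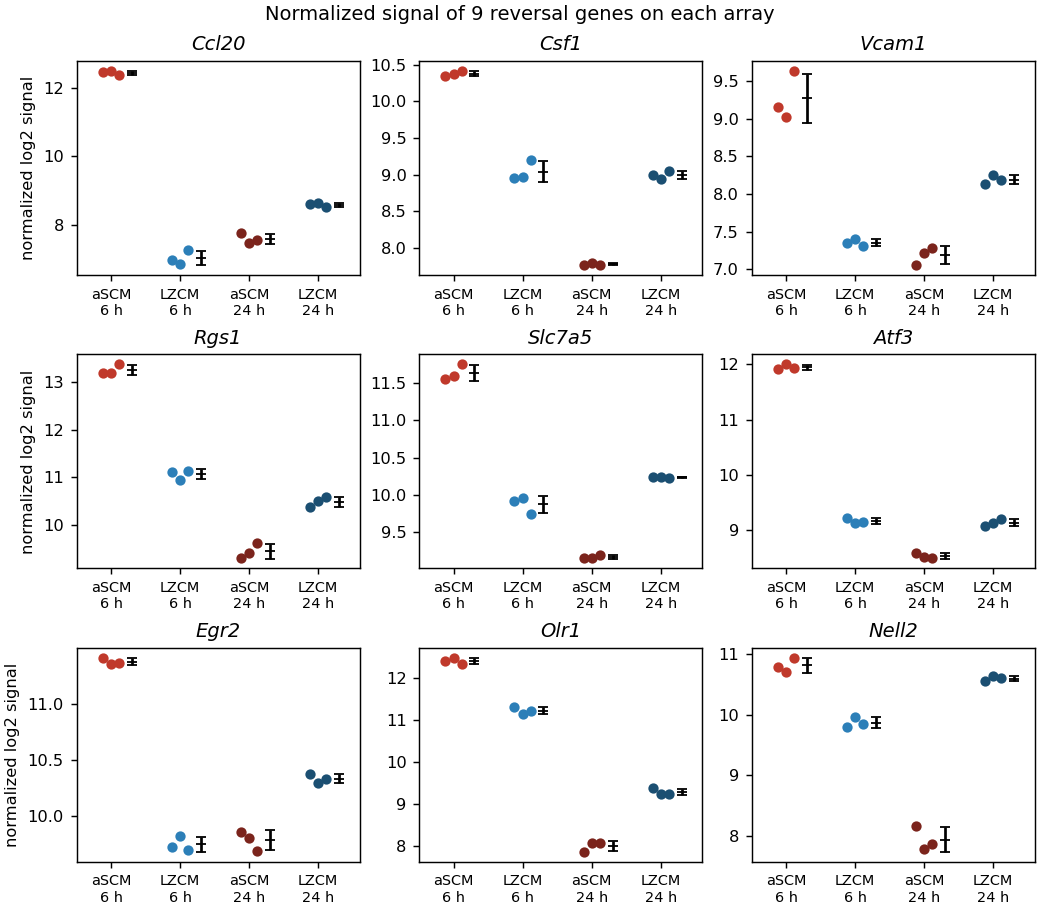
Normalized log2 signal of 9 reversal genes on each array, 1 panel per gene, with 1 point per array and the mean and SD of each group of 3 beside the points. In each panel the aSCM arrays lie above the LZCM arrays at 6 h and below them at 24 h, with Ccl20 at 12.37 to 12.47 in aSCM at 6 h.

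Regulators of receptor signalling in the set included Rgs1, Dusp8 and P2ry14. Rgs1, which speeds the inactivation of G proteins downstream of chemokine receptors, had 13.19, 13.19 and 13.37 in aSCM at 6 h, against 11.12, 10.94 and 11.14 in LZCM. At 24 h Rgs1 had 9.32, 9.41 and 9.62 in aSCM, against 10.38, 10.50 and 10.58 in LZCM, and both media stood lower at 24 h than at 6 h. Its neighbour on chromosome 13, Rgs2, was also a member, with differences of 0.68 at 6 h and -0.57 at 24 h, and was named after its values were seen. Dusp8, a phosphatase of stress-activated kinases, had 9.14, 9.03 and 9.25 in aSCM, against 7.72, 7.55 and 7.38 in LZCM at 6 h, and 7.09, 7.25 and 7.14 in aSCM, against 7.72, 7.88 and 8.07 in LZCM at 24 h. P2ry14, a receptor for UDP-glucose, had means of 8.69 in aSCM and 7.80 in LZCM at 6 h. At 24 h P2ry14 averaged 6.82 in aSCM and 7.48 in LZCM, where the aSCM mean is only a bound, since 0 of these 3 arrays were above background.

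Of 21 tested genes of the mitogen-activated kinase list, 13 were called higher and 4 lower at 6 h, 10 higher and 3 lower at 24 h, and Dusp8 was the 1 called higher first and lower later. That count was 2 with no normalization between arrays, 2 without aSCM 6 h replicate 3 and 2 without aSCM 24 h replicate 2. Dusp1, another phosphatase of the family, had log2 differences of 1.49 at 6 h and 1.82 at 24 h, and Dusp2 had 1.62 and 0.77. Map3k4, a kinase of this pathway outside the list, was also a member, with 1.00 and -0.54. It is named after its values were seen. Of 16 tested purine receptor and ectoenzyme genes, 4 were called higher and 7 lower at 6 h, and 4 higher and 5 lower at 24 h. The shares of all tested probes called higher and lower were 25.9% and 32.2% at 6 h and 30.8% and 29.2% at 24 h. Called higher first and lower later were 4.2%. The purine counts at 24 h lie near these shares, and nothing is read from them. P2ry14 stood apart from P2ry12 and P2ry13, receptors of resting microglia, which had -2.87 and -2.20 at 6 h and -2.25 and -1.61 at 24 h. The adenosine receptor gene Adora2a had 5.24 at 6 h and 4.19 at 24 h.

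Genes of nutrient uptake and metabolism in the set included Slc7a5, Olr1, Car2, Gclm and Idi1. Slc7a5, the light chain of a transporter of large neutral amino acids, had 11.55, 11.59 and 11.75 in aSCM at 6 h, against 9.91, 9.96 and 9.75 in LZCM, and 9.15, 9.16 and 9.19 in aSCM at 24 h, against 10.24, 10.24 and 10.23 in LZCM. Olr1, a scavenger receptor for oxidized low-density lipoprotein, had 12.41, 12.50 and 12.34 in aSCM at 6 h, against 11.31, 11.15 and 11.23 in LZCM. At 24 h Olr1 had 7.86, 8.08 and 8.09 in aSCM, against 9.38, 9.24 and 9.25 in LZCM, so the control medium also stood well below its 6 h level. Car2, a carbonic anhydrase, had differences of 1.81 at 6 h and -0.95 at 24 h. Gclm, the modifier subunit of the enzyme that limits glutathione synthesis, had 0.79 and -0.66, and Idi1, an isomerase of the mevalonate pathway, had 0.57 and -1.11.

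Of 23 tested genes of oxidative stress and iron handling, 12 were called higher and 3 lower at 6 h, and 16 higher and 3 lower at 24 h. Gclm was the 1 called higher at 6 h and lower at 24 h, and the count was 2 with a variance trend, without aSCM 24 h replicate 1 and without LZCM 24 h replicate 3. Gclc, the catalytic subunit of the same enzyme, had 0.85 at 6 h and -0.16 at 24 h (limma adjusted p = 0.0618), and Nqo1, a quinone reductase, had 0.99 and 2.18. In the cholesterol list 3 of 17 tested genes were called higher at 6 h and lower at 24 h: Idi1, Cyp51 with 0.21 and -0.27, and Sc5d with 0.19 and -0.73. That count was 1 with no normalization between arrays and 1 without aSCM 6 h replicate 2, aSCM 6 h replicate 3 or LZCM 6 h replicate 1. Of 23 tested DNA replication genes, 1 was called higher and 16 lower at 6 h, and 1 higher and 21 lower at 24 h. The 1 higher at 6 h was Cdt1, which licenses replication origins, with differences of 0.57 at 6 h and -0.63 at 24 h. The count higher at 6 h was 2 with 75th percentile scaling, 2 with the authors' series matrix and 0 with no normalization between arrays, which also left 0 called higher at 24 h.

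Secreted and matrix-associated genes made up a further part of the named set. Sfrp2, a secreted modulator of Wnt signalling, had 10.08, 10.16 and 10.39 in aSCM at 6 h, against 7.45, 7.40 and 7.26 in LZCM, a 7.16-fold difference. At 24 h Sfrp2 had 7.12, 7.17 and 7.06 in aSCM, against a mean of 7.94 ± 0.09 in LZCM (SD, n = 3). Igfbp3, a binding protein of insulin-like growth factors, had differences of 1.35 and -0.79, and Stc1, the hormone stanniocalcin, had 0.90 and -0.79. F3, the tissue factor that starts coagulation, had means of 9.90 in aSCM and 8.79 in LZCM at 6 h and of 8.68 in aSCM and 9.67 in LZCM at 24 h. Fjx1, the homologue of the fly gene four-jointed, had differences of 1.59 at 6 h and -1.02 at 24 h.

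Some members are better known from neural cells than from microglia. Nell2, a secreted glycoprotein of neurons, had the largest late fall: 8.16, 7.77 and 7.87 in aSCM at 24 h, against 10.56, 10.64 and 10.61 in LZCM, 6.35-fold lower. At 6 h Nell2 had 10.79, 10.71 and 10.95 in aSCM, against 9.79, 9.96 and 9.85 in LZCM. Dlx5, a homeobox factor of forebrain interneuron precursors that was named after its values were seen, had 7.74, 7.73 and 7.84 in aSCM at 24 h, against 10.01, 9.84 and 10.15 in LZCM, after a rise of 0.67 at 6 h. Basp1, a membrane protein abundant in growth cones, had 13.03, 13.01 and 13.30 in aSCM, against 11.96, 12.01 and 11.93 in LZCM at 6 h, and 11.45, 11.42 and 11.55 in aSCM, against 12.72, 12.83 and 12.76 in LZCM at 24 h. Both of the bright probes of Tacc2, a microtubule-associated protein of the centrosome, were members, with differences of 0.84 and 0.76 at 6 h and of -1.39 and -1.34 at 24 h. Another Tacc2 probe was above background on 0 of 12 arrays. The sums of astrocyte, oligodendrocyte and neuronal markers given above were also lower in aSCM at 24 h, though Nefl and Nefm were higher, and their part in these values was not tested.

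Some of the largest early rises lay outside the genes named by rank or list, with small late falls, and are named here after their values were seen. A rise of at least 4-fold at 6 h was found for 8 probes: Ccl20, Noct, Tbc1d17, Sfrp2, Atf3, Pnoc, Rgs1 and ILMN_1651187. Noct, which encodes the enzyme nocturnin, had 12.78, 12.72 and 12.66 in aSCM at 6 h, against 9.33, 9.33 and 9.32 in LZCM, and 8.92, 8.85 and 8.91 in aSCM at 24 h, against 9.69, 9.59 and 9.65 in LZCM. Pnoc, the precursor of the neuropeptide nociceptin, was 5.24-fold higher in aSCM at 6 h and 1.53-fold lower at 24 h. The Tbc1d17 probe, for a GTPase activator of Rab proteins, was 9.27-fold higher at 6 h and missed the rule at 24 h without aSCM 24 h replicate 1 or LZCM 24 h replicate 3, with differences of -0.46 and -0.47. A second Tbc1d17 probe was above background on 0 of 12 arrays and so gives no second reading. The probe with the largest smaller change of all 98, ILMN_1357605, had no gene symbol, with 10.72, 10.72 and 10.89 in aSCM at 6 h, against 9.09, 9.19 and 9.01 in LZCM, and 7.95, 8.04 and 8.15 in aSCM at 24 h, against 9.69, 9.84 and 9.73 in LZCM.

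**Figure D4:**
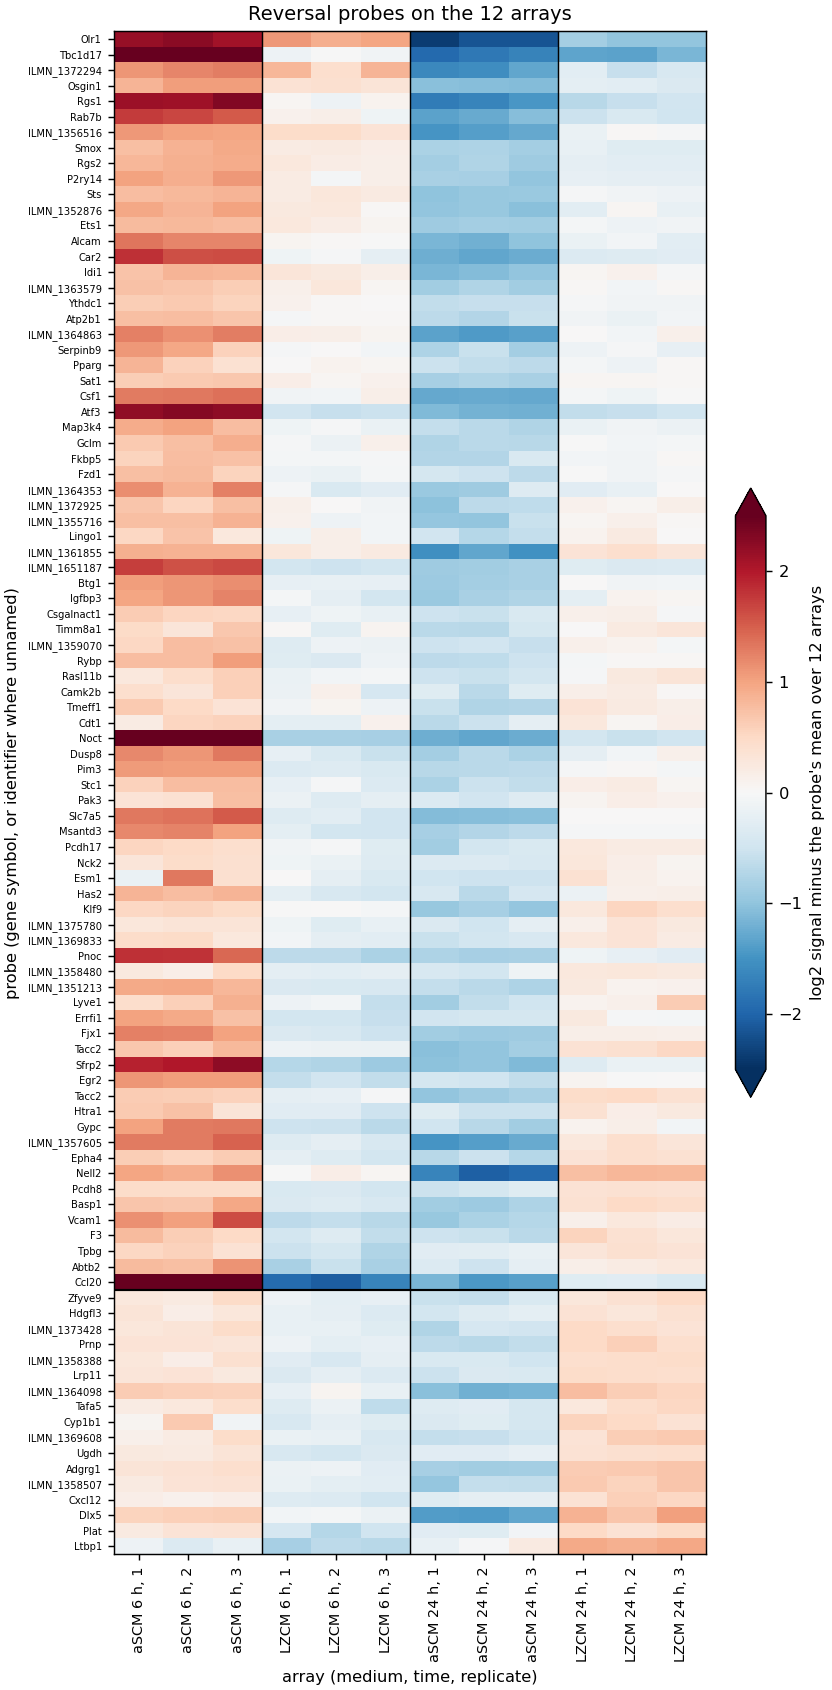
Log2 signal of the 98 reversal probes (rows) on the 12 arrays (columns), each as the difference from the probe's mean over the 12 arrays, in colours that end at -2.5 and 2.5. The 81 rows above the line had their highest group mean in aSCM at 6 h and the 17 below it in LZCM at 24 h, and rows of each part are ordered by the change over time in LZCM.

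The members differed in how the control medium behaved between the times. In 76 of the 98 the highest group mean was that of aSCM at 6 h and the lowest that of aSCM at 24 h, so that both control groups lay between them. In 12 the highest was LZCM at 24 h and the lowest aSCM at 24 h, in 5 the highest was aSCM at 6 h and the lowest LZCM at 6 h, and in 5 LZCM was highest at 24 h and lowest at 6 h. The change over time in aSCM, 24 h minus 6 h, had a median of -1.47 and was below 0 for 97 probes. In LZCM the median was 0.35, or 0.19 with no normalization between arrays, with 71 probes above 0 and 27 below. Over all tested probes these medians were 0.02 in aSCM and -0.01 in LZCM. The rule fixes the difference between the 2 changes to at most -1, so neither is tested.

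The change over time averaged over both media uses a contrast that shares no error with the rule, given equal group sizes, and was tested. Its outcome is not free of the rule, however. Where LZCM changes little over time, the rule makes this average negative, and the mirrored rule makes it positive. Over all tested probes the quartiles of the LZCM change were -0.15 and 0.14. The counts called lower and higher are therefore given as a description of the members. By limma with Benjamini-Hochberg adjustment over the 12351 tested probes, 83 of the 98 were called, 79 lower and 4 higher at 24 h. Over all tested probes 59.3% were called, 27.1% lower and 32.2% higher. The median averaged change was -0.59 over the 98 and 0.02 over all tested probes. In the 157 probes with the mirrored pattern, at least 0.5 lower in aSCM at 6 h and at least 0.5 higher at 24 h, 8 were called lower and 130 higher, with a median of 0.52. The largest was that of Olr1, at -3.17 ± 0.05 (SE, limma adjusted p = 1.27e-17), followed by the Tbc1d17 probe at -3.06 ± 0.06 (SE, limma adjusted p = 2.99e-17) and Rgs1 at -2.19 ± 0.06 (SE, limma adjusted p = 6.16e-15). Csf1 was at -1.32 ± 0.05 (SE, limma adjusted p = 1.96e-13) and Ccl20 at -1.64 ± 0.07 (SE, limma adjusted p = 4.99e-13).

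The 4 probes called higher at 24 h belonged to Ltbp1, Cxcl12, Plat and Ugdh, named here after their values were seen. Ltbp1, which tethers latent TGF-beta in the matrix, had 7.98, 8.14 and 8.40 in aSCM at 24 h, against 9.10, 9.06 and 9.13 in LZCM, and 8.05, 7.83 and 7.98 in aSCM at 6 h, against 7.34, 7.50 and 7.48 in LZCM. Its averaged change was 0.94 ± 0.06 (SE, limma adjusted p = 5.7e-10), and its LZCM groups differed by 1.66. The averaged changes of Cxcl12, a chemokine of stromal and neural cells, and Plat, the tissue plasminogen activator, were 0.24 ± 0.05 (SE, limma adjusted p = 0.000435) and 0.23 ± 0.06 (SE, limma adjusted p = 0.00212). Ugdh, which makes the precursor of glycosaminoglycans, had 0.14 ± 0.04 (SE, limma adjusted p = 0.00909). In these 4 the highest group was LZCM at 24 h and the lowest LZCM at 6 h. Ltbp1 missed the rule without LZCM 6 h replicate 1 or aSCM 6 h replicate 1, at rises of 0.46 and 0.47, and Cxcl12 without LZCM 6 h replicate 3, at 0.48. Pcdh8 was among the 15 not called, at -0.06 ± 0.05 (SE, limma adjusted p = 0.269). F3 was called at -0.17 ± 0.06 (SE, limma adjusted p = 0.035), a call that ended in 7 of the alternatives.

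**Figure D5:**
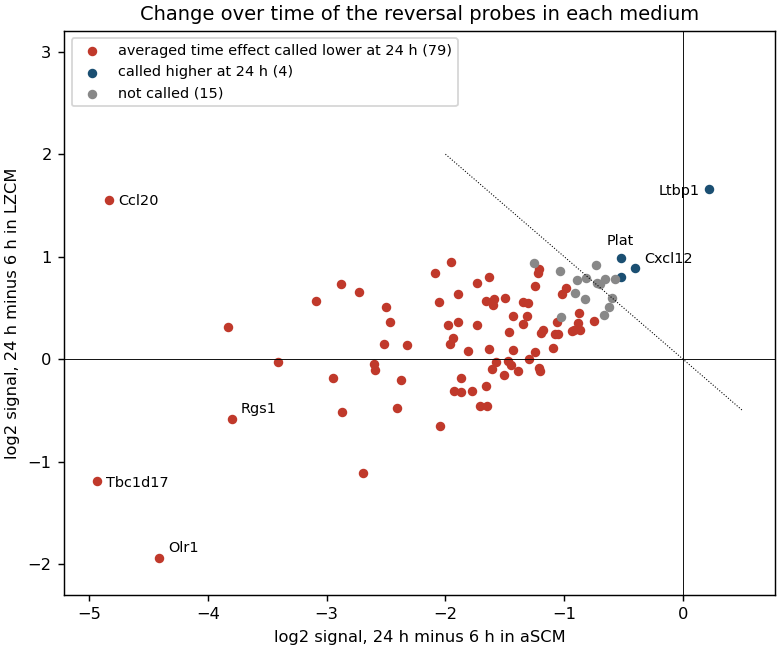
Change in log2 signal from 6 h to 24 h in aSCM (horizontal axis) and in LZCM (vertical axis) for the 98 reversal probes, coloured by the test of the change averaged over both media, with a dotted line where the 2 changes cancel. The 79 probes called lower lie left of the dotted line, and Ltbp1, with changes of 0.22 in aSCM and 1.66 in LZCM, lies farthest to its right.

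Features that the rule did not use directly varied among the members. The mean signal of the members over the 12 arrays ran from 7.02 to 13.99 with a median of 9.28, against 8.40 over all tested probes. Background left in the signal makes the rule harder to meet for dim probes, so this level is not free of the rule. The 76 genes lay on 19 chromosomes, and 4 pairs of members were separated by at most 2 protein-coding genes in RefSeq order: Msantd3 and Tmeff1, Rgs2 and Rgs1, Tacc2 and Htra1, and Smox and Prnp. Further probes of member genes numbered 5, and 4 of them were too dim to be tested. The fifth, a probe of the adaptor gene Nck2 with a mean signal of 7.13, had differences of 0.06 at 6 h and 0.04 at 24 h, where the member probe had 0.59 and -0.53.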

How the data were processed

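The authors deposited a table of log2 signals, with 22523 probes on 12 arrays, which its name calls not normalized; array medians ran from 6.77 to 7.19. The log base was read from the values, since the highest, taken as powers of 2, lie below the ceiling of a 16-bit scanner. The authors' series matrix, also log2 per its values, has column medians of 6.92 in each array and correlates at 0.9993 or more with the table; it served as an alternative, and it is not centred by probe. R 2.9.1 is listed by the submitters' processing notes. The scanner's software and any background subtraction or bead summary were not given in the sources used here.

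Signals were quantile normalized (limma 3.58.1, R 4.3.3). Background was modelled for each array as a normal distribution at the peak of its signal density, with the spread found below that peak, and a probe counted as above it at a one-sided p under 0.05. One limma fit of 4 group means (8 residual and 9.38 prior degrees of freedom) covered the 12351 tested probes, with a median standard error of 0.05 for the averaged time effect and 0.08 for a medium effect at 6 h. The number of arrays limits the precision. In simulated data for the averaged time effect over 12351 probes, the fit recovered 98 of 100 probes given a 1.5-fold change and 100 of 100 given a 2-fold change, with 5 false calls. The simulated noise was normal and independent, with no effect shared within an array and no normalization step. Only 200 probes were changed, whereas 59.3% were called in the data. The false calls therefore do not carry over to these data.

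Gene symbols came from GEO's platform annotation, updated through RefSeq gene IDs or accessions: 13793 probes had 1 symbol, 8730 had none and none had several. Of the annotated probes 13752 matched by gene ID, 5 by accession and 36 by neither. Named genes were the 20 highest by the smaller of rise and fall, members on a gene list, genes with 2 or more member probes and those next to a threshold. Members, gene lists and tests were chosen with earlier results of these data known. Alternatives covered background correction, normalization, the filter, the variance model, a replicate block, thresholds and each array left out.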

Additional observations from a re-analysis of the deposited data

Results flagged for a closer look

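The effect of alpha-synuclein medium went in opposite directions at 6 h and 24 h on every array for 97 of the 98 reversal probes. This opposition is what the rule selects, and it was not tested.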

How the results depend on the processing

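The number of probes meeting the rule was 98 and depended on the scale and the threshold: 152 with normexp background correction at an offset of 16, 155 with thresholds of 0.4, 52 with 0.6 and 9 with 1. It ran from 81 to 120 under the other scalings, of which 56 of 81 with no normalization between arrays and 95 of 120 with cyclic loess were among the 98, and from 93 to 102 when each array was left out. All 98 kept a rise at 6 h and a fall at 24 h under each of these settings. The settings reuse the values that chose the probes, so this is a description and not a test. With no normalization 78 of the 98 were called higher at 6 h and lower at 24 h, against 98 as reported. The share of all tested probes so called as reported was 4.2%. These calls use the contrasts of the rule, so nothing is read from either count. The count of members called by the averaged time effect ran from 81 to 86 over the alternatives and from 82 to 85 when each array was left out. The share of all tested probes called was 59.3% as reported and 37.9% with no normalization. It was 32.3% with no filter on dim probes and 63.4% with a filter on 3 arrays of 1 group. With a replicate block 85 members and 60.5% of all tested probes were called, and no call of a named gene ended. With that block 3 genes of the mitogen-activated kinase list and 2 of the oxidative stress list were called higher at 6 h and lower at 24 h, against 1 each, and 5 of the kinase list were called lower at 24 h, against 3. Residuals of same-numbered arrays correlated at -0.122 to 0.29, above 0.1 in 6 of 18 comparisons. Of the 12 arrays, 7 correlated best with their own number. With the block 7297 probes were called at 6 h, against 7176, and 7554 at 24 h, against 7405. These values do not settle whether the replicate numbers pair the samples, and the main fit treats the arrays as unpaired. The median change in aSCM was -1.67 and -1.52 with normexp offsets of 16 and 50, -1.52 with 75th percentile scaling, -1.64 with cyclic loess and -1.60 with no normalization, and -1.50 to -1.44 when each array was left out. In LZCM it was 0.41 with an offset of 16, 0.19 with no normalization, and 0.32 to 0.39 when each array was left out. The median percentile of the members among all probes of an array, averaged over the arrays, ran from 78.8 to 80.1 when each array was left out. For 6 of the arrays left out, this value moved by at least the mean SD within groups. With no normalization 4432 probes were called at 24 h, against 7405. Leaving out each array gave 6689 to 7227 calls at 6 h and 6871 to 7620 at 24 h. With 75th percentile scaling the median of all tested probes was 0.10 at 6 h and 0.13 at 24 h, against -0.02 and 0.03, and with no normalization -0.15 and -0.05. The call of F3 over time ended with an offset of 16 and without any 1 of 6 arrays (limma adjusted p from 0.0603 to 0.108). The cause of these shifts was not tested.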
